A study of Mus musculus with 6 samples.

Results

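Mbp, Pmp22, Prx, Cnp, Sox10 and Mag, genes of Schwann cells and their myelin, were followed in RNA of whole mouse femurs to describe how much nerve-derived RNA each library held and to compare mutant with control mice. These 6 genes were found by Ensembl gene identifier among the 23733 genes of the count table, and all 6 had a row and were among the 18126 genes tested. The mutant femurs came from Rosa26 mIfitm5/+ mice with Acan-Cre ERT2, which carry a mutant Ifitm5 allele of osteogenesis imperfecta type V in the Rosa26 locus. Acan-Cre ERT2 is a Cre recombinase made from the aggrecan promoter of chondrocytes that needs tamoxifen to act, so the allele is aimed at cartilage cells. Tamoxifen was injected at 10 mg/kg per dose at postnatal day 10 by the RNA-Seq methods, and from day 10 to day 15 by the series text. For the mouse lines in general, controls were littermates that had only Cre, only the knocked-in allele, or no transgene. The sources used here do not give the genotype of each control femur, its tamoxifen treatment or the sex of any mouse. Mice were 5 weeks old, with 1 library from each of 3 mutant mice (M1, M2 and M3) and 3 control mice (C1, C2 and C3).

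Schwann cells are the glia of peripheral nerves. Myelinating Schwann cells wrap 1 axon each in a stack of compacted membrane, whereas non-myelinating Schwann cells hold bundles of thin axons. In bone, nerve fibres run in the periosteum, along blood vessels into the marrow, and in attached muscle. Sox10 is the transcription factor that Schwann cells need at all stages, and it switches on myelin genes together with Egr2. Mag and Prx belong to the uncompacted parts and outer faces of the sheath, Pmp22 and Mbp to compact myelin, and Cnp to the cytoplasm between. The members are not equally particular to nerve. Cnp and Pmp22 are made by many other cells, Prx also by some endothelial cells, and Sox10 also by melanocytes. The Mbp gene also gives Golli transcripts in blood-forming and immune cells, which counts per gene do not separate from myelin transcripts. In bulk RNA, fewer Schwann cells and less RNA per Schwann cell cannot be told apart.

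The stretches of 250 bases before the annotated start are shown for 3 members, as RefSeq gives them on GRCm38.p6. That build is older than the mm39 of the counts, and its coordinates are used for these sequences only. Prx is shown as a gene of myelinating Schwann cells, Pmp22 because its transcripts start at several places that a count per gene merges, and Cnp because its window holds a SOX-type motif. All lie on the forward strand and are written 5′ to 3′. Capitals mark matches to the motif ACAANG on either strand, where N is any base. The Prx window is chr7:27499074-27499323, the Pmp22 windows are chr11:63128732-63128981 and chr11:63132553-63132802, and the Cnp window is chr11:100574689-100574938.
Prx: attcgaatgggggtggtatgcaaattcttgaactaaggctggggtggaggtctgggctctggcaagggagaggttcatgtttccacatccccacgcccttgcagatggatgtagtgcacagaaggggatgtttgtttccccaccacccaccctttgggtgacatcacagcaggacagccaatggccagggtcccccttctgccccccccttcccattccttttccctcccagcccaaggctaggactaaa
Pmp22, most upstream window: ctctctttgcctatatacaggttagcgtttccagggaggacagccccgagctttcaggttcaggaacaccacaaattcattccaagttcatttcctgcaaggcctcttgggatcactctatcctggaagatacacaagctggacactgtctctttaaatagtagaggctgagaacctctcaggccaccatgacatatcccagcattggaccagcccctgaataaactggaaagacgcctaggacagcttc
Pmp22, most downstream window: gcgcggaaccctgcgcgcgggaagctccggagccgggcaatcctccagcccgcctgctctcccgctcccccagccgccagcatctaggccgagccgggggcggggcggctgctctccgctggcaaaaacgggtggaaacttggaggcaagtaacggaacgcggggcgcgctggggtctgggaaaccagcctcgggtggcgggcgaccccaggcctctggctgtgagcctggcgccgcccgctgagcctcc
Cnp: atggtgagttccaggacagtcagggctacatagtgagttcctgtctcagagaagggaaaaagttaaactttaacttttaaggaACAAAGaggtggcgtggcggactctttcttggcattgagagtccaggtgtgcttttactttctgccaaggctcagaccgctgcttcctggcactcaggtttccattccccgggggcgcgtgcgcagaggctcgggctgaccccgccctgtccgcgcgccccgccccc
Windows were found for 4 of the 6 members, 9 in all (1 for Prx, 1 for Cnp, 4 for Pmp22 and 3 for Mag). The motif occurred in 4 of these 9 windows, and in 36.3% of all 32851 windows of the table. The Mag windows chr7:30914864-30915113 and chr7:30914923-30915172 overlap and hold the same matches, so these are counted in each. The 4 Pmp22 windows differed in base composition, from 48.8% GC in the most upstream to 73.6% in the most downstream, where the median of all windows was 52.4%. The most upstream and the most downstream Pmp22 windows hold no match, and the Cnp window holds 1. A match is a run of letters and not a binding site.

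Totals ranged from 11473467 to 17058572 counts per library. The femurs were pulverized whole, and their libraries held very different amounts of other tissues. The summed level of 15 skeletal muscle genes ranged from 3946 CPM (counts scaled to library size by TMM) in C3 to 33768 CPM in M2. M3 was low in muscle too, with 7589 CPM. The summed level of 8 erythroid genes ranged from 419 to 1252 CPM in controls and reached 7172 CPM in M1. Cartilage genes were at 4169 and 5792 CPM in M1 and M3, against 1912 CPM in M2 and at most 1733 CPM in controls.

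All 6 members were counted in every library, but their depth was unequal. Sox10 had 3 to 24 counts per library and Mag 5 to 20, against 75 to 112 for Prx, 239 to 432 for Cnp, 271 to 519 for Mbp and 304 to 600 for Pmp22. Divided by the merged length of their annotated exons, Pmp22 had the highest mean level, 9.06 CPM per kb (6.15 to 12.6 over the 6 libraries). Cnp followed with 6.16 CPM per kb (4.74 to 7.46), and its range overlapped that of Pmp22. Mbp had 2.71 CPM per kb (1.79 to 4.21) and Prx 1.18 CPM per kb (0.89 to 1.56), each below the range of the gene before it. Sox10 had 0.240 CPM per kb (0.0638 to 0.467) and Mag 0.186 CPM per kb (0.0653 to 0.335), and these ranges overlapped. Pmp22 and Cnp, which many cell types make, were thus the most abundant per length, and Sox10 and Mag the least. The place of Mbp depends on the length used. Its exons, merged over 69 annotated transcripts, come to 9745 bases, against 4049 for Cnp. In CPM not divided by length, the mean of Mbp was 26.4, against 25.0 for Cnp and 37.2 for Pmp22.

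No member passed the test between mutant and control femurs. The quasi-likelihood test of edgeR, Benjamini-Hochberg adjusted over all genes, called 0 of the 6 members, where 0% of all genes tested were. At an unadjusted p under 0.05 there was 1 member, Mbp, against 8.56% of all genes tested, and DESeq2 called 0 of the 6, against 0.613% of the genes it gave an adjusted p. The signs were mixed, with 4 positive and 2 negative log2 fold changes of mutant over control. Their median was 0.14, where the median of all genes tested was 0.00. The CPM of mutant and control libraries overlapped for all 6 members, whereas 13.2% of all genes tested had groups that did not overlap. Between mice with the same number, 3 of the 6 members differed in the same direction in all 3 pairs, as did 39.7% of all genes tested. These were Mbp and Prx, higher in the mutant, and Mag, lower in the mutant. With 3 mice against 3, an exact permutation test of 1 value cannot give a two-sided p below 0.1.

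**Figure D1:**
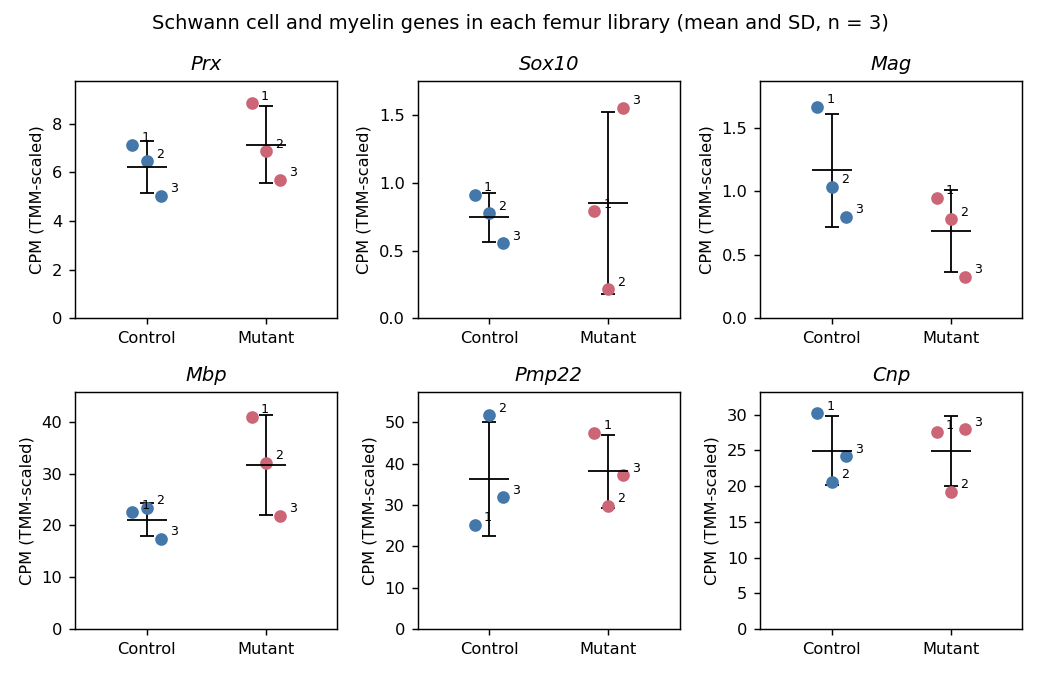
Level of each member in each library, in CPM scaled by TMM from 0 on the vertical axis, with control mice in blue and mutant mice in red and the number of the mouse beside its point. Horizontal bars show the mean and vertical bars the SD of 3 mice. Control and mutant points overlap in all 6 panels, and the ratio of the highest to the lowest mutant mouse is largest for Sox10 (1.55 and 0.21 CPM).

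Sox10, the transcription factor of the lineage, lies on chromosome 15 of GRCm39 from 79039108 to 79049469 on the reverse strand. It was at 0.91 CPM in C1, 0.77 in C2 and 0.55 in C3, and at 0.79 CPM in M1, 0.21 in M2 and 1.55 in M3. The highest and the lowest library of the 6 were thus both mutant, M3 and M2. These rest on 24 counts (exact Poisson 95% interval 15.4 to 35.7) and 3 counts (0.62 to 8.77), which do not overlap in counting error. By edgeR, the log2 fold change (mutant over control) was 0.21 (standard error, SE, 0.70, 95% interval -1.38 to 1.80, adjusted p = 0.948), an interval that leaves room for more than a doubling or a halving of the level. Leaving out M3 gave -0.58 and leaving out M2 gave 0.66.

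Mag, myelin-associated glycoprotein, an adhesion molecule that faces the axon, lies on chromosome 7 from 30598464 to 30614474 on the reverse strand. It was at 1.66 CPM in C1, 1.03 in C2 and 0.80 in C3. In the mutants it was at 0.95 CPM in M1, 0.78 in M2 and 0.32 in M3. M3 lay below all 3 control mice. M2 (11 counts) lay just under C3 (13 counts), and with library size alone it lay above it, at 0.79 against 0.76 CPM. The edgeR log2 fold change was -0.76 (SE 0.59, 95% interval -2.09 to 0.56, adjusted p = 0.731), the lowest of the 6 members. It was negative without any one of the libraries, from -1.07 without M1 to -0.42 without M3.

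Prx encodes periaxin, which ties the outer membrane of the myelinating Schwann cell to its surroundings, and lies on chromosome 7 from 27196813 to 27219639 on the forward strand. Its level was 7.14 CPM in C1, 6.46 in C2 and 5.05 in C3. In the mutants it was 8.85 CPM in M1, 6.87 in M2 and 5.70 in M3. C3 and M3, the libraries low in muscle, had its lowest levels. M2 and C2, the highest in muscle (33768 and 26507 CPM), ranked 3 and 4 of the 6 libraries for Prx. The 8 endothelial genes summed to 543 to 575 CPM in the controls and 449 to 512 CPM in the mutants, lowest in M1, where Prx was highest. The parts of attached muscle and of endothelial cells in the Prx values were not tested. On the log2 scale the fold change by edgeR was 0.20 (SE 0.26, 95% interval -0.39 to 0.79, adjusted p = 0.848), and 0.02 without M1.

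Mbp, myelin basic protein, which holds the inner faces of the compacted membrane together, lies on chromosome 18 from 82493207 to 82603763 on the forward strand. It was at 22.5 CPM in C1, 23.4 in C2 and 17.4 in C3. In the mutants it was at 41.0 CPM in M1, 32.1 in M2 and 21.8 in M3. M1 and M2 lay above all 3 control mice, and M3 lay among them. The mean was 31.6 ± 9.60 CPM (SD, n = 3) in the mutants and 21.1 ± 3.24 CPM (SD, n = 3) in the controls, for a log2 fold change of 0.58 by edgeR (SE 0.24, 95% interval 0.05 to 1.12, adjusted p = 0.570). Of the members Mbp had the smallest unadjusted p, 0.0359 from edgeR, and its adjusted p did not pass in any alternative. With the replicate number as a block the unadjusted p was 0.0042 and the adjusted p 0.0816 (edgeR), the lowest adjusted p of its alternatives, which reached 1.00. The log2 fold change was 0.35 without M1. With library size alone in place of TMM, the level was 21.4 CPM in C1, 21.8 in C2 and 16.6 in C3 and 45.2 CPM in M1, 32.5 in M2 and 23.1 in M3, so that the groups no longer overlapped. On that scale the median log2 fold change of all genes was 0.16, with 12774 positive and 5352 negative. How many of all genes had groups that did not overlap on that scale was not counted. M1, where Mbp was highest, also had the highest erythroid level (7172 CPM). The mutants stood in the same order for both, with 2338 CPM in M2 and 1108 CPM in M3. Neutrophil genes (1731, 1382 and 989 CPM) and adipocyte genes (148, 74.4 and 43.5 CPM) had that order in the mutants too. Lymphocyte genes did not, with 80.7 CPM in M1, 37.8 in M2 and 41.7 in M3. Among the controls the erythroid level was highest in C1 (1252 CPM, against 776 in C2), and Mbp was highest in C2. The part of Golli transcripts of blood-forming cells in the Mbp counts was not tested.

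Pmp22, a membrane protein of compact myelin, lies on chromosome 11 from 63019718 to 63050600 on the forward strand. It was at 25.2 CPM in C1, 51.7 in C2 and 31.9 in C3, and at 47.4 CPM in M1, 29.7 in M2 and 37.2 in M3. Control mice held both the highest and the lowest value, and the mutant mice lay between them. By edgeR, the log2 fold change was 0.07 (SE 0.28, 95% interval -0.57 to 0.71, adjusted p = 0.956). It ranged from -0.15 without C1 to 0.41 without C2. The counts cover transcripts from all of its starts, those of the 4 windows above included.

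Cnp, the 2′,3′-cyclic nucleotide phosphodiesterase of myelin-forming glia, lies on chromosome 11 from 100465730 to 100482936 on the forward strand. It was at 30.2 CPM in C1, 20.6 in C2 and 24.2 in C3, and at 27.6 CPM in M1, 19.2 in M2 and 28.0 in M3. C2 and M2 were the lowest of their groups. The edgeR log2 fold change was -0.00 (SE 0.21, 95% interval -0.47 to 0.46, adjusted p = 0.997), and 0.16 with library size alone. Its gene body overlaps that of Dnajc7 on the opposite strand over 9313 bases. Dnajc7 was at 68.7 to 80.8 CPM, above Cnp in all 6 libraries, and since the use of strand in counting was not given, reads of the shared stretch cannot be told apart. Annotated genes on the opposite strand within Prx (Gm15541) and Mbp (Rpl21-ps8) were at most at 0.75 and 2.57 CPM.

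The members did not order the 6 libraries alike. Over the 15 pairs of members, Pearson's r of log2(CPM + 0.5) ranged from -0.27 to 0.89 with a median of 0.11, and 9 pairs were positive and 6 negative. The highest r was that of Mbp and Prx, 0.89 (exact permutation test, two-sided p = 0.0208, 0.3125 adjusted over the 15 pairs, n = 6). Their Spearman's rho was 0.83 (exact permutation p = 0.0583, adjusted 0.4375), and r was 0.83 without M1 and M2, the libraries farthest from the median of Mbp. The next was that of Cnp and Sox10, with an r of 0.73 (exact permutation p = 0.0819, adjusted 0.615, n = 6) and a rho of 0.89 (exact permutation p = 0.0333, adjusted 0.4375), and r was 0.57 without C2 and M2. Sox10 and Mag, a regulator and a gene of the sheath, had an r of -0.27 (exact permutation p = 0.644, adjusted 0.900, n = 6) and a rho of 0.09 (exact permutation p = 0.919, adjusted 0.985). Without M2 and M3, which are farthest from the median of Sox10, r was 0.84. None of the 15 pairs passed the adjustment by r or by rho, and a group of 3 libraries is too small for a value within it.

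**Figure D2:**
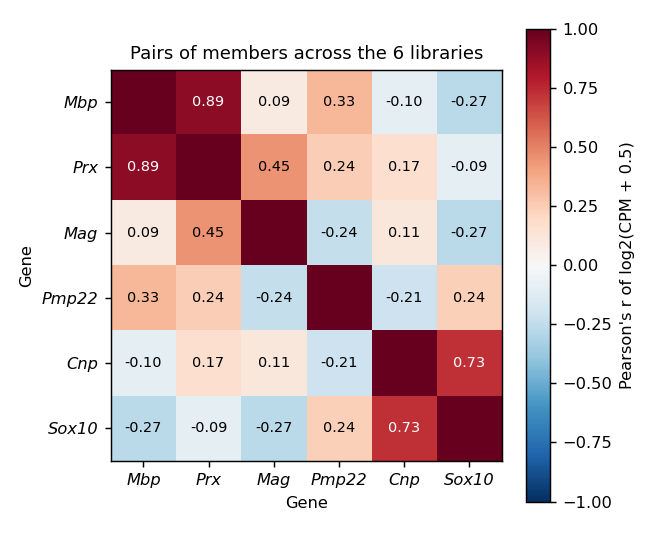
Pearson's r between the members across the 6 libraries, on log2(CPM + 0.5), with the genes on both axes and the diagonal left without a value. Of the 15 pairs, only those of Mbp with Prx (0.89) and of Cnp with Sox10 (0.73) are above 0.5.

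The other genes of myelinating Schwann cells also had mixed signs. Of 16 listed genes 15 had a row and 12 were tested, and Gjb1 had no row in the table used here and was not analysed. Of the 12, 8 had a positive and 4 a negative log2 fold change (median 0.24). By any of edgeR, DESeq2 and edgeR with the replicate number as a block, 0 passed. An unadjusted p under 0.05 from edgeR was found for 5, against 8.56% of all genes tested.

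Ncmap, a protein of the noncompact parts of peripheral myelin, was at 2.49 CPM in C1, 2.32 in C2 and 1.72 in C3, and at 7.43 CPM in M1, 3.33 in M2 and 7.64 in M3. All 3 mutant mice lay above all 3 control mice, with M2 the lowest of them. The cartilage genes had the same order in the mutants, with 4169 CPM in M1, 1912 in M2 and 5792 in M3. The part of cartilage in the Ncmap values was not tested. By edgeR, the log2 fold change of Ncmap was 1.50 (SE 0.38, adjusted p = 0.520), from 1.30 to 1.79 with 1 library left out. Its adjusted p was 0.0556 by edgeR with the replicate number as a block and 0.0677 by DESeq2. On the other side, Dhh, the hedgehog signal that Schwann cells send to the nerve sheath, was at 1.29 to 2.16 CPM in the controls and 0.64 to 0.78 CPM in the mutants. On the log2 scale the fold change by edgeR was -1.31 (SE 0.46, adjusted p = 0.563). Egr2, the partner of Sox10 in myelin gene activation, was at 2.91 to 4.13 CPM in the controls and, just below, 2.45 to 2.90 CPM in the mutants, for a log2 fold change of -0.47 by edgeR (SE 0.30, adjusted p = 0.678). Of all 12 genes, the groups of 4 did not overlap, Ncmap, Dhh and Egr2 among them, against 13.2% of all genes tested. The enzymes of myelin lipids Gal3st1 and Ugt8a had log2 fold changes of 1.52 (SE 0.65) and 2.12 (SE 1.14), with at most 3.71 CPM in any library. M1 held 47 of the Ugt8a counts, against 13 in M2 and 6 in M3, and its log2 fold change was 0.79 without M1 and 3.34 without C1. Gldn, which Schwann cells set at nodes of Ranvier, had -1.36 (SE 0.68), and Drp2, a partner of periaxin, 0.16 (SE 0.20).

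Genes of the Schwann cell lineage and of non-myelinating Schwann cells were on the positive side in 7 of 9 tested genes, with a median of 0.40. None of the 9 passed by any of these 3 fits. Against 8.56% of all genes tested, 1 had an unadjusted p under 0.05 from edgeR. That was S100b, a calcium-binding protein that Schwann cells and chondrocytes both make. It was at 3.57 CPM in C1, 5.08 in C2 and 2.71 in C3, and at 12.6 CPM in M1, 3.90 in M2 and 16.3 in M3. M1 and M3, the high libraries, were those in which the cartilage genes were high, and the part of cartilage in S100b was not tested. By edgeR, the log2 fold change was 1.54 (SE 0.50, adjusted p = 0.550). Adgrg6, a receptor that Schwann cells need for myelination and that cartilage also expresses, was highest in M3 (30.5 CPM) and M1 (25.6 CPM), and was at 15.6 to 21.7 CPM in the other 4 libraries. Erbb3, the neuregulin receptor of Schwann cells, was at 1.17 to 3.70 CPM in the controls and 2.01 to 5.14 CPM in the mutants (log2 fold change 0.75, SE 0.50). Scn7a, a sodium channel of non-myelinating Schwann cells, was at 9.41 to 15.3 CPM and 8.29 to 16.3 CPM, with a log2 fold change of 0.18 (SE 0.30). Cdh19, a cadherin of Schwann cells and their precursors, had 0.87 (SE 0.67), L1cam 0.39 (SE 0.33), Gfap 0.68 (SE 0.67) and Lgi4, which Schwann cells secrete, -0.32 (SE 0.26). Foxd3 and Sox2 had no row in the table used here and were not analysed.

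**Figure D3:**
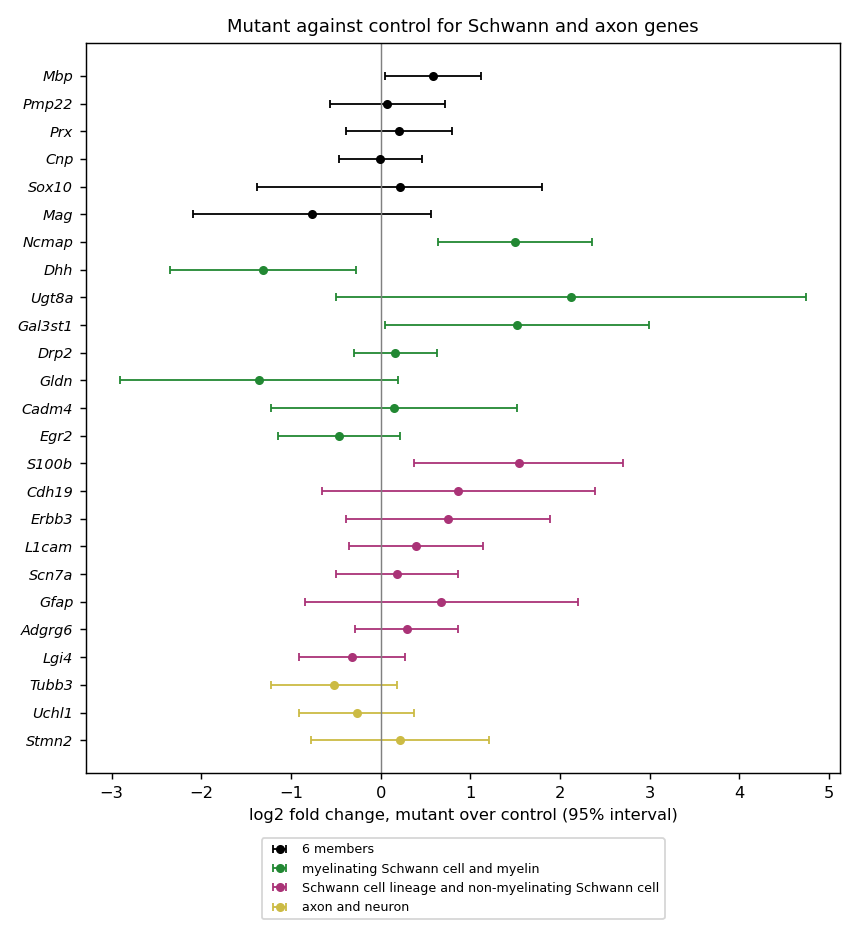
Log2 fold change of mutant over control with its 95% interval from edgeR's quasi-likelihood fit, on the horizontal axis, for the 6 members and for 19 tested genes of the Schwann and axon lists with a mean of at least 1 CPM. The interval of Mbp alone among the members lies above 0 (0.05 to 1.12), and the intervals do not take account of the number of genes tested.

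The neurons of these fibres have their cell bodies outside the bone. Of 15 listed axon and neuron genes 6 had a row and 3 were tested. Tubb3, a tubulin of neurons, was at 4.37 to 5.48 CPM in the controls and 2.46 to 4.68 CPM in the mutants, with a log2 fold change of -0.52 (SE 0.31). Uchl1, a ubiquitin hydrolase abundant in neurons, had -0.27 (SE 0.28), and Stmn2, a tubulin-binding protein of growing axons, 0.21 (SE 0.44). None of the 3 passed in the same fits. Nefl, Nefm, Snap25, Th, Dbh, Calca, Scn9a and Scn10a had no row in the table used here. Of the genes of oligodendrocytes, the myelin-forming glia of the brain, Mog, Mobp, Opalin, Olig1 and Olig2 had no row. Cldn11, a tight junction protein of their myelin that other cells also make, was at 0.06 to 0.42 CPM. Aspa, an aspartoacylase that is not particular to these glia, was at 2.46 to 3.79 CPM in the controls and 8.06 CPM in M1, 1.27 in M2 and 4.47 in M3, for a log2 fold change of 0.57 by edgeR (SE 0.57, adjusted p = 0.802). Of melanocyte genes, which bear on Sox10, Dct, Tyr, Tyrp1 and Mlana had no row and Pmel was at 0.24 to 0.55 CPM. Mitf, which osteoclasts and macrophages also use, was at 26.6 to 29.5 CPM in the controls and 18.8 to 22.4 CPM in the mutants (log2 fold change -0.43, SE 0.14). The part of melanocytes in the Sox10 counts was not tested.

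Summed over each list, levels of the Schwann and axon lists differed less between libraries than those of the muscle and erythroid lists did. How far such sums measure nerve content was not tested, and Sox10 alone ranged from 0.21 to 1.55 CPM. The 15 measured myelinating Schwann cell genes summed to 35.8 CPM in C1, 41.8 in C2 and 33.9 in C3. In the mutants they summed to 61.4 CPM in M1, 38.2 in M2 and 48.3 in M3. The 10 lineage genes summed to 49.7 CPM in C1, 60.8 in C2 and 42.6 in C3, and to 76.6 CPM in M1, 53.0 in M2 and 70.3 in M3. In both lists the groups overlapped, with M2 below C2 but above C1 and C3. The mutant mean was 1.33 and 1.31 times the control mean. Without S100b and Adgrg6, which cartilage also makes, the 8 other lineage genes gave a ratio of 1.15. These 8 summed to 24.2 to 34.4 CPM in the controls, and to 38.4 CPM in M1 and 33.6 in M2. In M3 they summed to 23.5 CPM, the lowest of the 6 libraries. The members Prx, Sox10 and Mag together summed to 6.40 to 9.71 CPM in the controls and 7.58 to 10.6 CPM in the mutants, 1.07 times. Prx made most of this sum, with means of 6.21 CPM in the controls and 7.14 CPM in the mutants. The means of Sox10 were 0.75 and 0.85 CPM, and Mag went the other way, with 1.16 and 0.68 CPM. The 6 axon genes summed to 12.3 to 14.6 CPM in the controls and 8.85 to 13.7 CPM in the mutants, 0.82 times. Over the same libraries the mutant mean of the summed level was 2.48 times the control mean for cartilage genes. It was 4.34 times for erythroid, 3.03 times for neutrophil and 0.63 times for osteoblast genes. For muscle, lymphocyte and adipocyte genes it was 1.31, 1.33 and 1.30 times, near the ratios of the Schwann lists. For fibroblast, endothelial and macrophage genes it was 1.09, 0.87 and 0.76 times. Without M1 the erythroid ratio was 2.11, and M3 (1108 CPM) lay below C1 (1252 CPM). With the replicate number as a block 3.32% of all genes tested were called by edgeR, none of them a member or a gene of the Schwann and axon lists. That fit called 8 of 15 muscle, 7 of 8 erythroid, 8 of 8 neutrophil and 1 of 8 cartilage genes higher, and 1 of 8 osteoblast and 1 of 6 macrophage genes lower. Without the block edgeR called 0 in every one of these lists. DESeq2 called 6 of 8 cartilage and 8 of 8 neutrophil genes higher and 0 muscle, erythroid, osteoblast or macrophage genes. No gene of the adipocyte, endothelial, fibroblast or lymphocyte lists was called in any of the 3 fits. The part of unequal tissue content in the members' values was not tested.

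**Figure D4:**
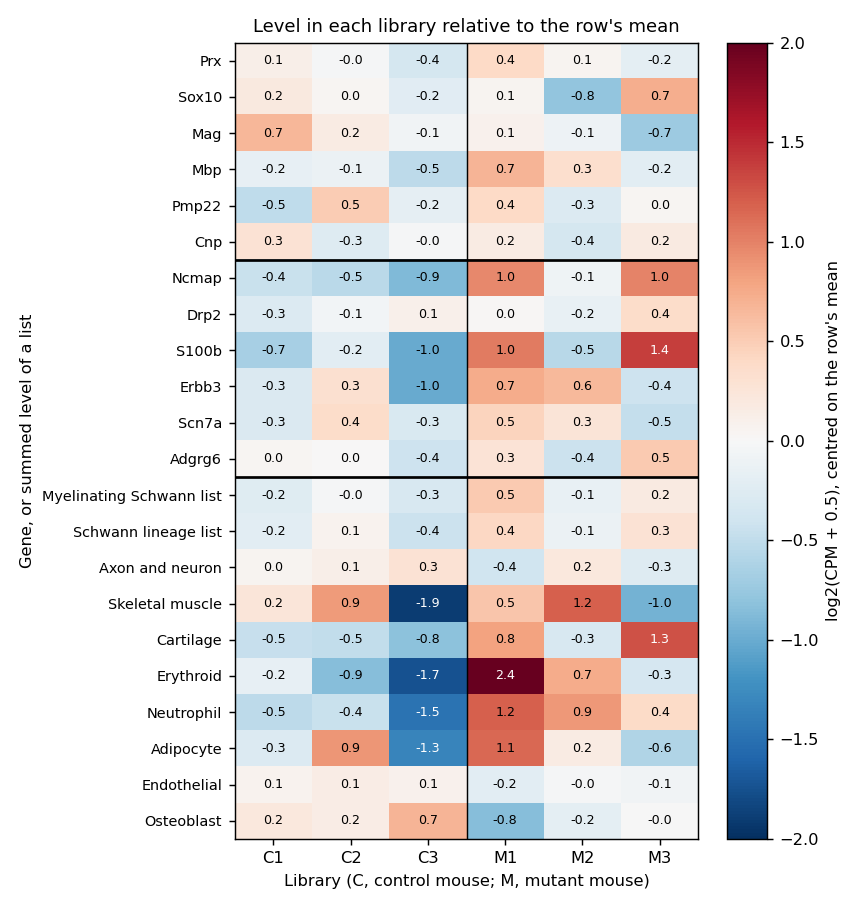
Level in each library (columns, C for control and M for mutant mice) of the 6 members, of 6 other Schwann cell genes and of the summed level of 10 gene lists (rows), as log2(CPM + 0.5) centred on the row's mean and printed in each cell. The members of the top block do not share 1 pattern, while muscle is lowest in C3 and M3 and erythroid genes are highest in M1.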

How the data were processed

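Femur RNA of 3 mutant and 3 control mice was depleted of ribosomal RNA, and the authors aligned paired-end reads to mm39 with STAR. Partek, also with mm39, is named in the submitters' processing notes. Their versions, the annotation and the strand setting are not given in the sources used here. Here the authors deposited estimated counts per gene, not scaled, of which 70.7% were exactly whole. Every gene in the table had at least 10 counts in all 6 libraries together. Names and coordinates came from GENCODE vM39 on GRCm39, the same build, which matched 23572 identifiers and left 161.

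Counts were rounded, filtered by filterByExpr (minimum 10 counts, total 15), scaled by TMM and tested with edgeR 4.0.16 (quasi-likelihood, robust, Benjamini-Hochberg over 18126 genes, threshold 0.05) in R 4.3.3, after a test on simulated data. The standard errors given with edgeR were worked out from its log2 fold change and the F statistic of its test. Intervals of fold changes are at 95%, from these errors and a t distribution, and Poisson intervals cover counting error only. DESeq2 1.42.0, limma 3.58.1, other scalings and filters, a replicate block and each library left out were alternatives. SciPy 1.17.1 gave the exact permutation tests of pairs.

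Whether equal replicate numbers pair the mice was checked from deviations from the group means. Pair 1 gave a correlation of 0.154, pair 2 of 0.212 and pair 3 of 0.465, all above the 0.1 required, while mutant mouse 1 and control mouse 2 gave 0.202. The numbers come from the labels, and no source ties them to litters, so p-values measure the spread between these mice. No 2 libraries agreed within counting noise (chi-square per gene at least 16.8).

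The members and gene lists were chosen with earlier results of these data known. Named genes were the members, genes of the Schwann and axon lists with a mean of at least 1 CPM, from any other list at most the 2 genes with the smallest p (4 where called), and the 5 genes most like the mean of Prx, Sox10 and Mag. Pmel, Cldn11 and the genes overlapping Cnp, Prx and Mbp were chosen after their values were seen. A few listed genes are not reported here by name and enter only the counts and sums of their lists.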

Additional observations from a re-analysis of the deposited data

How the results depend on the processing

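The 6 members had 0 calls in every alternative run. Mbp, Prx and Mag kept their sign in all of them, with log2 fold changes of 0.35 to 0.79, 0.02 to 0.37 and -1.07 to -0.42, and the adjusted p of Mbp ranged from 0.0816 with the replicate block to 1.00. Pmp22 was at -0.10 and Aspa at -0.28 with quality weights, Cnp at 0.16 with library size alone, and Sox10 at -0.11 with limma-voom and -0.67 with quality weights. With 1 library left out, ranges were -0.15 to 0.41 for Pmp22, -0.12 to 0.15 for Cnp, -0.58 to 0.66 for Sox10, -0.0027 to 0.27 for Drp2, -0.23 to 1.00 for Cadm4, -0.0225 to 0.45 for Scn7a, -0.095 to 1.01 for Aspa and -0.18 to 0.47 for Stmn2. The stricter filter left Sox10 and Mag untested.

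Over all genes edgeR called 0, DESeq2 120 and the replicate block 602, which was 297, 700 and 156 without pairs 1, 2 and 3, alternatives added after the data were seen. Leaving out 1 library gave 0 to 8, the 8 without M2. In the lists outside the members edgeR called 0, DESeq2 14 and the block 26 (23, 38 and 14 without pairs 1, 2 and 3), and 0 to 4 with 1 library left out. The block changed no call of a member or of a Schwann or axon gene. The cause of these differences was not tested. Alternatives also added later were the ratios of summed levels without each library, which ranged from 1.16 to 1.47 for the myelinating, 1.21 to 1.44 for the lineage and 0.71 to 0.89 for the axon list. With library size alone in place of TMM and all libraries kept, the ratios of these lists were 1.50, 1.47 and 0.91. Depth limits Sox10 and Mag, at 3 to 24 and 5 to 20 counts per library.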

Other observations

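Among 17058 genes outside the lists with a mean of at least 1 CPM, the 5 whose log2(CPM + 0.5) over the 6 libraries was most like the mean of the centred values of Prx, Sox10 and Mag were 9330154K18Rik (Pearson's r 0.993), Gm9800 (0.984), Cxcl12 (0.983), Whamm (0.983) and Zfp708 (0.977). That mean was highest in C1 (0.32) and M1 (0.18) and lowest in M2 (-0.28) and C3 (-0.22). Cxcl12, a chemokine of marrow stroma, was at 459 CPM in C1, 379 in C2, 247 in C3, 438 in M1, 248 in M2 and 318 in M3. With 6 libraries and this many candidates, a high r is a description of these libraries only.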
